A study of Arabidopsis thaliana with 44 samples.

Results

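The genes described here are the 46 nuclear genes for the light-harvesting antennae and the nuclear-encoded subunits of photosystems I and II, out of 33557 genes in the expression table. They are defined by gene name and function, and no measured value enters the definition, though the set was drawn up with earlier results of these data known: 9 genes of the trimeric antenna of photosystem II (LHCB1, LHCB2 and LHCB3), 6 of its minor antenna (LHCB4 to LHCB7), 6 of the photosystem I antenna (LHCA1 to LHCA6), the 2 LIL3 genes, PSBS, 12 genes of the photosystem I core (PSAD to PSAO), 6 of the oxygen-evolving side of photosystem II (PSBO, PSBP, PSBQ and PSBR) and 4 of its small subunits (PSBW, PSBX, PSBY and PSBTN). Chloroplast-encoded subunits are not among them.

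RNA was sequenced from the whole aerial part of Arabidopsis thaliana plants of an ecotype from Sweden (SW) and one from Italy (IT), each as wild type and as lines made from it, with 44 samples in 22 groups of 2. In the SW background the lines were sw:cbf2, sw:cbf23 and sw:cbf123. The CBF genes encode cold-induced transcription factors. The study describes CRISPR/Cas9 inactivation of CBF2 in sw:cbf2 and of all 3 CBF genes in sw:cbf123. Its methods do not describe sw:cbf23, which is taken from its label as a mutant of 2 CBF genes. In the IT background the lines were it8 and it33. From the study's own supplementary naming, it8 is taken as the triple mutant it:cbf123, and it33 is kept under its label. The genotype of it33 is not given in the labels or methods. The line labelled 35s was sampled only in the warm, and neither its label nor the methods give its background. It is set beside IT below as a choice. The study's methods mention plants that overexpress CBF2, and CBF2 stood at 539.5 FPKM in this line against 0.202 FPKM in warm IT. The study describes the CBF2 allele of the IT wild type as non-functional because of a small deletion. Warm plants grew at 22°C under 100 to 120 µmol m-2 s-1 of light, and cold plants spent 24 h or 2 weeks at 4°C under 35 µmol m-2 s-1, all with a 12 h photoperiod and all sampled 4 h after lights on. Temperature and light intensity therefore changed together and cannot be told apart. The labels give an age of 23 days for every sample, including those with 2 weeks of cold. Each mutant goes under a single label, while the study's methods mention independent F2 lines from backcrosses. Whether a group holds 1 such line or more is not given. The edited genes were still transcribed, with CBF2 at 36.0 FPKM in SW and 108 FPKM in sw:cbf123 after 24 h of cold, so that their level is no check of the labels.

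Light-harvesting proteins bind chlorophyll and pass excitation energy to the reaction centres, with LHCB proteins serving mainly photosystem II and LHCA proteins photosystem I. Photosystem II splits water at a manganese cluster shielded by PSBO, PSBP and PSBQ, and photosystem I passes electrons to ferredoxin at a docking site that PSAD and PSAE help to form. In leaves these nuclear genes are induced by light and lowered by signals from a stressed chloroplast, and cold slows the use of electrons more than the capture of light.

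Expression is given as FPKM, fragments scaled to transcript length and to the number mapped in the library. Levels are set side by side between genes and groups, but ratios between groups depend on the scaling, which was varied as described below. The table holds 1 value per gene and group, in which the authors had pooled both replicates, so no spread between replicates, no error and no test can be given for any value below. A gene is called higher or lower between 2 groups when the log2 ratio, taken after adding 0.5 FPKM to both, reached 1 in size, which is a 2-fold difference, and at least 1 of the groups reached 1 FPKM. Beside a count of members that met this or another rule stands, as background, the percentage of all genes with a value that met it. FPKM sums per group ran from 880986 to 1101340, and 17705 to 18118 genes reached 1 FPKM. Root hair and flower marker genes were near 0 in every group (0 of 4 genes in each list ever reached 1 FPKM), and the 4 green leaf markers summed to 28189 to 33375 FPKM in the warm groups. The 4 senescence markers ranged from 68.2 to 1031 FPKM in sum, the highest being warm IT through SAG13 (917 FPKM, against 34.1 in warm SW). Their part in the results below was not tested. In bulk tissue, fewer green cells and less RNA per cell cannot be told apart.

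In warm leaves the members were among the most abundant transcripts of all. Of the 50 genes with the highest FPKM, 30 were members in warm SW and 27 in warm IT. After 24 h of cold the number was 12 in SW and 15 in IT, and after 2 weeks it was 18 in SW and 30 in IT. The 46 members together made up 17.2% of the summed FPKM of all genes in warm SW, 6.52% after 24 h and 8.31% after 2 weeks. In IT they made up 13.6%, 9.55% and 14.7%. The share thus fell in both ecotypes within 24 h, and at 2 weeks it was back at the warm value or above it in IT while in SW it was below the warm value. One member, LHCB1.3 (AT1G29930), was listed at exactly 0 in all 7 groups with 2 weeks of cold and at 3762 to 13854 FPKM in the other 15. An exact 0 for so abundant a gene can be a failed estimate, as can that of RBCS1A, the small subunit of Rubisco, in 2-week sw:cbf123. LHCB1.3 is therefore given no value at 2 weeks, and counts there are over 45 members. Without LHCB1.3 the shares were 16.7%, 6.13% and 8.31% in SW and 12.8%, 8.36% and 14.7% in IT.

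**Figure D1:**
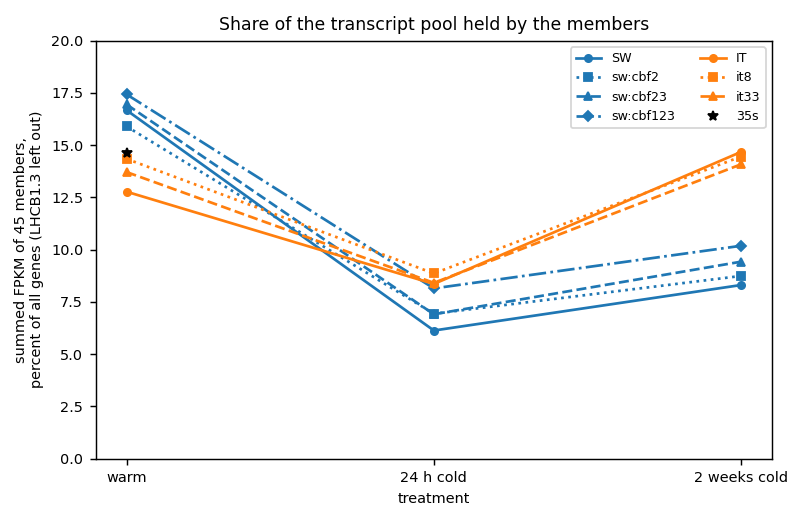
Summed FPKM of 45 members (LHCB1.3 left out) as a percentage of all genes on the vertical axis, in each line at each treatment on the horizontal axis; blue lines are the SW background, orange lines the IT background, the star the 35s line, and each point is 1 pooled value. All lines fall at 24 h, and at 2 weeks the 3 IT-background lines lie at 14.1% to 14.7% while the 4 SW-background lines lie at 8.31% to 10.2%.

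The first question was which members responded to 24 h of cold. In SW, 33 of 46 members were called lower than in the warm and none higher, where 14.7% of all genes were called lower. In IT, 11 of 46 were called lower and none higher, against 10.9% of all genes. The median log2 ratio of the members was -1.36 in SW and -0.74 in IT, and that of all genes was -0.02 and -0.06. The lines made from the ecotypes were compared with their own warm plants. Members called lower numbered 25 in sw:cbf2 (background 12.1%), 32 in sw:cbf23 (11.9%) and 23 in sw:cbf123 (11.5%). They numbered 21 in it8 (10.7%) and 19 in it33 (11.3%), and under quantile normalization the it8 count was 13. The genes called lower in all 7 lines were 9 (4.1% of all genes), namely LHCB2.3, LHCB4.2, LHCB6, LHCA2, LHCA3, LHCA6, PSAD2, PSAE1 and PSAH2. A further 9 were called lower in none (77.6% of all genes), which were LHCB1.1, LHCB1.3, LHCB7, LHCA5, LIL3:2, PSBS, PSAE2, PSBR and PSBTN. Of the green leaf markers, RCA and CA1 were also called lower at 24 h in SW, and RCA, CA1 and GAPB in IT, while RBCS1A was not; whether they share a cause with the members was not tested. The count for IT was 17 instead of 11 when each group was scaled to the nuclear genes that are not members.

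**Figure D2:**
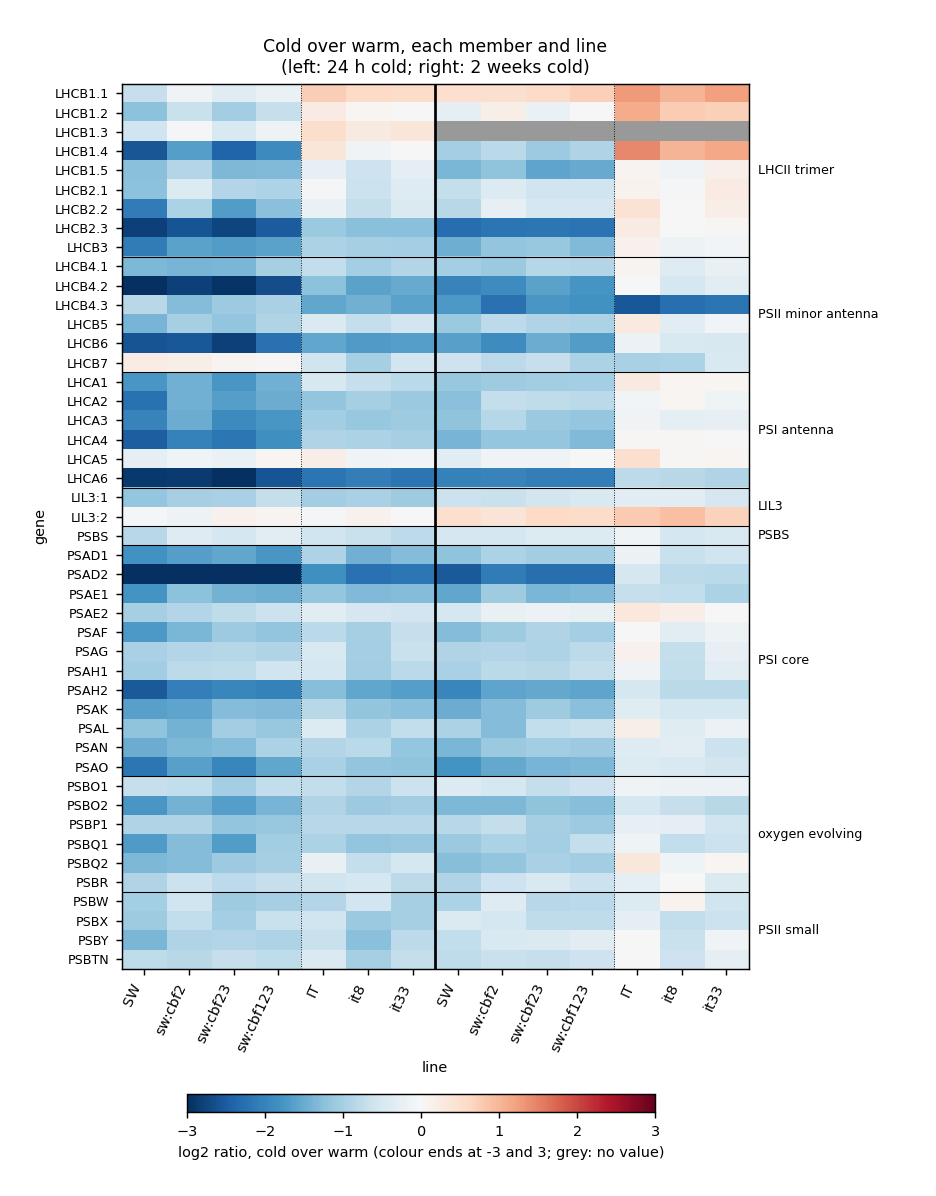
Log2 ratio of cold over warm for the 46 members (rows, ordered by class) in the 7 lines with cold groups (columns), at 24 h on the left and 2 weeks on the right; blue is lower and red higher in the cold, and grey marks LHCB1.3 at 2 weeks. The colour is cut at both ends of its scale, so the largest falls share the same darkest blue. PSAD2 has the lowest log2 ratio at 24 h (-4.06 in SW). LHCB4.3 lies between -2.54 and -1.72 in all 7 lines at 2 weeks, and LHCB1.1 and LHCB1.4 are red in the 3 IT-background lines at 2 weeks.

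Within the trimeric antenna of photosystem II, the LHCB1 genes encode its most abundant protein. They lie in 2 clusters, LHCB1.1 to LHCB1.3 at chr1:10472280-10479114 and LHCB1.4 and LHCB1.5 at chr2:14522524-14525918 (TAIR10.1). The proteins of LHCB1.1 and LHCB1.2 are 100% identical over 267 residues, and their coding sequences are identical at 95.6% of positions, with a longest identical run of 116 bases. LHCB1.3 matches LHCB1.1 at 96.1% of coding positions, with a longest run of 119 bases. The first 90 coding bases of these 3 genes are shown as an example, though the longest identical runs are longer than this stretch. Capitals mark the 9 positions at which the copies differ. They lie at chr1:10475803-10475892 (minus strand), chr1:10473157-10473246 (minus strand) and chr1:10478071-10478160 (plus strand).
LHCB1.1: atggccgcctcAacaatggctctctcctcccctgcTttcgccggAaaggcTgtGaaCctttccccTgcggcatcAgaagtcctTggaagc
LHCB1.2: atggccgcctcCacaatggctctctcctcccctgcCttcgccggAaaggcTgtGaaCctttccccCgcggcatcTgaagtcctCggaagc
LHCB1.3: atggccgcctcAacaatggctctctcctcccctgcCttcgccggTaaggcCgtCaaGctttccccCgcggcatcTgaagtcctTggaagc
How fragments that fit several copies were shared out is not given in the sources used here, so the single levels of these 3 genes are uncertain. LHCB1.3 also overlaps NRPA2 on the opposite strand by 108 bases, and whether strand was used in counting is not given either.

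LHCB1.1 (AT1G29920) stood at 2551 FPKM in warm SW, 1580 after 24 h and 3647 after 2 weeks. In IT it stood at 3722, 6230 and 9061 FPKM. LHCB1.2 (AT1G29910) gave 4359, 1855 and 3572 FPKM in SW and 4770, 5651 and 10265 in IT. Both were called higher at 2 weeks in IT, with log2 ratios of 1.28 and 1.11, at the time when LHCB1.3 was listed at 0. The sum of the 3 near-identical copies is free of how fragments were divided among them, provided that none were lost where LHCB1.3 was listed at 0. It was 12563, 7197 and 7219 FPKM in SW, which left 57.3% of the warm sum at 24 h and 57.5% at 2 weeks. In IT it was 17833, 25395 and 19326 FPKM, or 142% and 108% of the warm sum. The 3 copies together were thus higher than in the warm at 24 h in IT, as in it8 (122%) and it33 (125%), and lower in SW and its mutants (57.3% to 84.1%). At 2 weeks the listed sum in IT was close to its warm value, under the same proviso. The calls for the single copies LHCB1.1 and LHCB1.2 at that time may depend on the division of fragments, which was not tested.

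LHCB1.4 (AT2G34430) had the widest difference between the ecotypes at 24 h. It fell from 1375 FPKM in warm SW to 233 at 24 h, a 5.90-fold difference, and stood at 675 at 2 weeks. In IT it stood at 1253 FPKM in the warm and 1606 at 24 h and rose to 3378 at 2 weeks, with log2 ratios of 0.36 and 1.43. In sw:cbf2 it was 1558, 494 and 888 FPKM, in sw:cbf23 2160, 405 and 1018, and in sw:cbf123 1965, 523 and 1048. In it8 it was 1667, 1537 and 3405 FPKM, and in it33 1581, 1598 and 3557. The groups did not overlap in the cold: at 24 h and at 2 weeks every SW-background line lay below every IT-background line, whereas in the warm they overlapped. The 4 SW-background lines gave log2 ratios of -2.56 to -1.66 at 24 h and the 3 IT-background lines -0.12 to 0.36. Its neighbour LHCB1.5 (AT2G34420) went from 2705 to 1130 and 1037 FPKM in SW, and from 4588 to 3882 and 4864 in IT. LHCB1.5 is overlapped over 1045 bases by an antisense gene not analysed here. LHCB1.4 and LHCB1.5 share a run of 122 coding bases, so their single levels are uncertain too.

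LHCB2 proteins are the other main component of the trimer and, with LHCB1, are phosphorylated when the antenna moves between photosystems. LHCB2.3 (AT3G27690) fell furthest of the 3 copies, from 2094 FPKM in warm SW to 299 at 24 h and 427 at 2 weeks, log2 ratios of -2.81 and -2.29. In IT it was 1365, 633 and 1612 FPKM. LHCB2.2 (AT2G05070) went from 2834 to 657 and 1580 FPKM in SW, and in IT from 1981 to 1734.7 and 2692. LHCB2.1 (AT2G05100) went from 2212 to 947 and 1350 FPKM in SW, and in IT from 1966 to 1874 and 2124, so that it was called lower only in SW among the 7 lines at 24 h. LHCB2.1 and LHCB2.2 share a run of 137 coding bases, so these 2 levels are also uncertain. LHCB3 (AT5G54270) went from 5759 to 1344 and 2076 FPKM in SW, and in IT from 6011 to 3114 and 6595. At 2 weeks the LHCB2 and LHCB3 genes of the 3 IT-background lines had log2 ratios of -0.16 to 0.44 against the warm.

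The minor antenna links the trimers to the core. Of its genes, LHCB4.2 (AT3G08940) fell furthest, from 1838 FPKM in warm SW to 197 at 24 h and 459 at 2 weeks, while IT gave 1303, 557 and 1300 FPKM. Its copy LHCB4.1 (AT5G01530), whose protein is 89.5% identical, went from 3488 to 1370 and 1727 FPKM in SW, and in IT from 2932 to 1753 and 3112. LHCB4.3 (AT2G40100) was expressed far lower, at 52.6 FPKM in warm SW and 131 in warm IT, and followed another course. It went to 29.5 and then 15.6 FPKM in SW and to 43.7 and then 22.1 in IT, and was the one member called lower in all 7 lines at 2 weeks (2.73% of all genes), with log2 ratios of -2.54 to -1.72. LHCB6 (AT1G15820) fell from 1979 to 330 FPKM in SW, and in IT from 2543 to 865 at 24 h, and stood at 639 and 2235 FPKM at 2 weeks. LHCB5 (AT4G10340) went from 4125 to 1577 and 1909 FPKM in SW, and in IT from 5334 to 3945 and 6497. LHCB7 (AT1G76570), a rare relative at 13.96 to 40.6 FPKM over the 22 groups, was called in no line at either time; at 24 h its log2 ratio was 0.04 to 0.23 in the SW background and -0.99 to -0.57 in the IT background.

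In photosystem I, LHCA1 to LHCA4 form the antenna belt, and LHCA5 and LHCA6 are rare proteins that join the photosystem to the chloroplast NADH dehydrogenase-like complex. LHCA6 (AT1G19150), found here at 9.67 to 107 FPKM over the 22 groups, fell at 24 h from 74.8 to 9.67 FPKM (SW) and from 95.01 to 20.6 FPKM (IT), which made it the member with the lowest log2 ratio in IT (-2.18). At 2 weeks it stood at 17.8 and 54.6 FPKM. LHCA5 (AT1G45474) behaved otherwise, at 116, 96.0 and 91.5 FPKM in SW and 164, 187 and 230 in IT, and was called in no line at either time. The 4 belt genes were all called lower in SW at 24 h, with log2 ratios of -1.75 for LHCA1, -2.23 for LHCA2, -1.99 for LHCA3 and -2.47 for LHCA4. In IT the values were -0.48, -1.18, -1.04 and -0.91. LHCA4 (AT3G47470) shows the scale: 4818, 869 and 1835 FPKM in SW and 7196, 3824 and 7401 in IT. At 2 weeks each belt gene was called lower in SW (-1.39 to -1.13), and in the IT-background lines none was.

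The LIL3 proteins anchor chlorophyll-synthesis enzymes, and the 2 copies diverged in the cold. LIL3:1 (AT4G17600) went from 326 to 145 and 208 FPKM in SW, and in IT from 246 to 120 and 198. LIL3:2 (AT5G47110) stood at 512, 492 and 722 FPKM in SW and at 302, 290 and 524 in IT. Its log2 ratio at 24 h was -0.14 to 0.14 over the 7 lines, and at 2 weeks 0.38 to 0.91, so that it lay above the warm level in every line without reaching the 2-fold rule. PSBS (AT1G44575), which triggers the dissipation of excess light energy as heat, was called in no line; it went from 3223 to 1815 and 2270 FPKM in SW, and in IT from 2333 to 1549 and 2116.

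Among the photosystem I core genes, PSAD2 (AT1G03130) had the largest fall of any member in SW. It went from 2202 FPKM in warm SW to 132 at 24 h, 16.6-fold lower, and stood at 383 at 2 weeks. In IT it went from 966 to 269 and 676 FPKM. In sw:cbf2 it was 1584, 150.2 and 370 FPKM, in sw:cbf23 1782, 166 and 369, and in sw:cbf123 1779, 154 and 372. In it8 it was 1216.5, 256 and 702 FPKM, and in it33 1194, 264 and 676. Every SW-background line was above every IT-background line in the warm and below it at both times in the cold. Its copy PSAD1 (AT4G02770), with a protein 95.1% identical, went from 6770 to 1921 and 2956 FPKM in SW, and in IT from 2311 to 1219 and 2048. PSAH, a docking site of the mobile antenna, gave the same contrast: PSAH2 (AT1G52230) went from 5841 to 1015 and 1496 FPKM in SW while PSAH1 (AT3G16140) went from 2846 to 1384 and 1460. PSAO (AT1G08380) went from 2678 to 596 and 777 FPKM in SW, and in IT from 4582 to 2339 and 3430. Log2 ratios of the 7 other core genes at 24 h ran from -1.78 to -0.97 in SW and from -1.17 to -0.33 in IT. PSAF (AT1G31330), near the plastocyanin docking site, had log2 ratios of -1.71 and -1.30 in SW and -0.80 and -0.02 in IT, and PSAG (AT1G55670) -0.97 and -0.90 in SW and -0.46 and 0.13 in IT. At 24 h the summed core genes kept 33.9% of the warm sum in SW and 57.1% in IT, and at 2 weeks 41.6% and 87.0%.

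On the water-splitting side a larger part of the transcripts was kept than in the core of photosystem I. The 6 oxygen-evolving genes kept 49.9% of their warm sum at 24 h in SW and 63.7% in IT, and 54.6% and 90.4% at 2 weeks. By comparison the photosystem I antenna kept 24.3% in SW and 55.9% in IT at 24 h. PSBO1 (AT5G66570), the main manganese-stabilising protein, went from 3194 to 1987 and 2414 FPKM in SW, and in IT from 3210 to 1928 and 2977, with log2 ratios at 24 h of -0.68 and -0.74. PSBO1 was one of 3 members that were not lower in SW than in IT by this measure at 24 h, with LHCB4.3 and LHCB7. Its copy PSBO2 (AT3G50820) had log2 ratios of -1.74 in SW and -0.90 in IT. PSBR (AT1G79040), the member with the highest FPKM in this class, went from 7778 to 4180 and 4182 FPKM in SW, and in IT from 6491 to 4277 and 5258, and was called in no line. The 4 small subunits kept 49.8% and 64.2% of the warm sum at 24 h.

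In 9 subunits or families there is more than 1 gene among the members, which allows the copies to be compared within each line. In each of the 9, at least 1 copy had a lower log2 ratio than another at 24 h in all 7 lines. Among them were 6 pairs that kept this order at 2 weeks in all 7 lines: PSAD2 against PSAD1, PSAH2 against PSAH1, PSBO2 against PSBO1, PSAE1 against PSAE2, LIL3:1 against LIL3:2 and LHCB4.2 against LHCB4.1. The same held for LHCB2.3 against LHCB2.2, for LHCB1.2 and LHCB1.5 against LHCB1.1, and for LHCB1.5 against LHCB1.2. The single levels of LHCB1.1, LHCB1.2 and LHCB1.5 are uncertain, and LHCB1.3 was listed at 0 at 2 weeks in all 7 lines. Sameness over lines therefore does not settle these LHCB1 orders. Families with more copies also offer more pairs. How often pairs of other genes keep their order over the 7 lines was not computed, so these counts are a description only. For PSAD the difference in log2 ratio between the copies ranged from -2.24 to -0.80 at 24 h, for PSAH from -1.48 to -0.51 and for LHCB4 from -1.87 to -0.48. The make-up of the pool shifted with it. PSAD2 gave 24.5% of summed PSAD transcripts in warm SW and 6.4% at 24 h, and 29.5% and 18.1% in IT. PSAH2 gave 67.2% of PSAH in warm SW and 42.3% at 24 h, and the share of PSAE2 in PSAE went from 18.9% to 28.8%. In these first 6 pairs, the copy with the lower ratio in PSAD, PSBO, LIL3 and LHCB4 was the less abundant one in the warm, and in PSAH and PSAE the more abundant one. For PSBQ the difference lay between 0.01 and 0.74 at 24 h, and at 2 weeks its direction varied among the lines. LHCB2.3 fell further than LHCB2.1 in all 7 lines at 24 h and in 5 of them at 2 weeks.

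**Figure D3:**
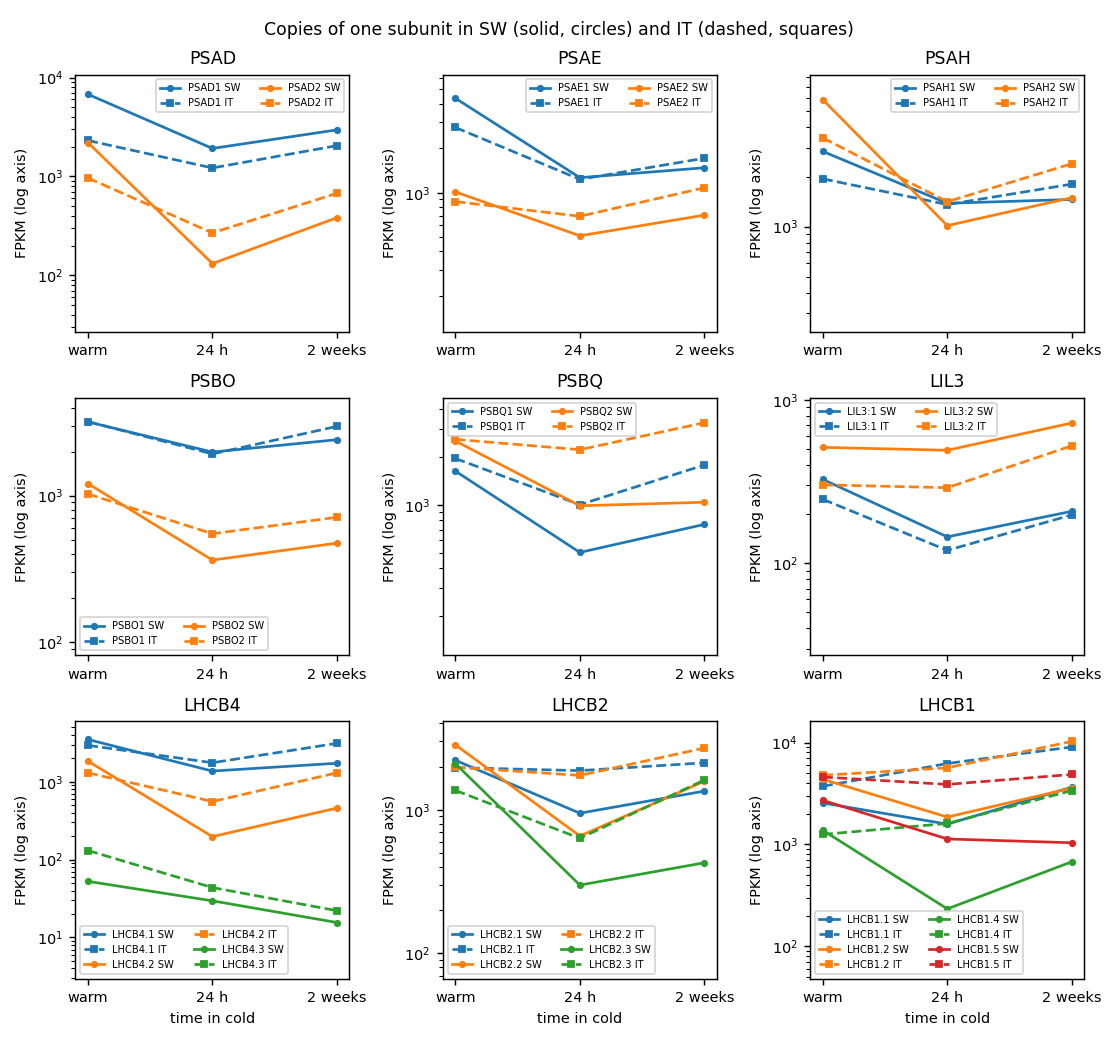
FPKM on a log axis against time in cold for the copies of 9 subunits or families in SW (solid lines, circles) and IT (dashed lines, squares); each point is 1 pooled value, and LHCB1.3 is left out. PSAD2 drops from 2202 to 132 FPKM in SW while PSAD1 drops from 6770 to 1921, and LHCB4.3 is lower at each later time in both ecotypes.

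The second question was whether the members recovered in prolonged cold. Between 24 h and 2 weeks, 6 of 45 members were called higher in SW (background 7%) and 8 in IT (7.27%), and none lower in either. The 8 called higher in IT became 13 under quantile normalization and 17 when scaled to nuclear genes that are not members. The median log2 ratio of the members was 0.46 in SW and 0.63 in IT, against 0.03 for all genes in both. Those called higher in SW were LHCB1.1, LHCB1.4, LHCB2.2, LHCB4.2, LHCA4 and PSAD2. In IT they were LHCB1.4, LHCB2.3, LHCB3, LHCB4.2, LHCB6, LHCA2, LHCA6 and PSAD2. In IT, 35 of 45 members were nearer to their warm level at 2 weeks than at 24 h (51.0% of all genes were), and in SW 39 (60.0%).

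Against the warm plants, 25 of 45 members were still called lower in SW after 2 weeks (background 11.3%), 20 in sw:cbf2 (10.5%), 20 in sw:cbf23 (9.71%) and 21 in sw:cbf123 (11%). In IT 1 of 45 was called lower (11.7%), as in it8 (8.83%) and it33 (9.31%), and in each it was LHCB4.3. The 3 members called higher in IT (7.89%) were LHCB1.1, LHCB1.2 and LHCB1.4. The median log2 ratio was -1.11 in SW and -0.09 in IT. The IT median was 0.12 under quantile normalization and 0.06 when scaled to nuclear genes that are not members, so it has no settled direction. Under quantile normalization, which forces all groups to 1 distribution and so acts on genes at its top, the SW count was 11, and those of its mutants were 10, 9 and 8.

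The third comparison was between the ecotypes. In the warm 5 members were called higher in SW than in IT (background 10.7%) and 3 lower (17.3%). The first count was near the share over all genes and the second was below it. The count of 5 was 9 when scaled to nuclear genes that are not members and 1 after removal of a trend with base composition. The 5 were PSAD1 (6770 against 2311 FPKM), PSBY (4361 against 1556), PSAG (8522 against 3323), PSAD2 (2202 against 966) and PSAF (9316 against 4248), of which 4 belong to the photosystem I core. The 3 were PSBX (1944 against 6347 FPKM), PSBW (1442 against 3471) and LHCB4.3. Warm SW stood apart from its own mutants in these genes: in the mutants PSAD1 was 3850 to 4201 FPKM and PSBY 2336 to 2392, and against IT none of the 8 members but PSBX, in sw:cbf2, was called in any of the 3 mutants. At 24 h of cold 20 of 46 members were called lower in SW (background 15.5%) and none higher, and at 2 weeks 21 of 45 (13.5%) and none higher. At both times LHCB1.4 was lowest, with log2 ratios of -2.78 and -2.32. The count at 24 h was 11 under quantile normalization. For PSAG, PSBY and PSAD1 the log2 ratio of SW over IT was 0.85, 0.79 and 0.66 at 24 h and 0.33, 0.75 and 0.53 at 2 weeks, below the 2-fold rule.

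The difference between the 2 cold responses combines 4 groups. At 24 h the response of SW was lower than that of IT by 1 log2 unit or more for 18 of 46 members (background 6.14%) and higher for none. At 2 weeks it was lower for 25 of 45 members (8.71%), and the medians were -0.81 and -1.03. The counts were 7 and 14 under quantile normalization. LHCB1.4 (-2.92), PSAD2 (-2.22) and LHCB4.2 (-1.99) differed most at 24 h and LHCB2.3 (-2.53), LHCB1.4 (-2.46) and PSAD2 (-2.01) at 2 weeks. In sign alone, 43 of 46 members were lower in SW than in IT at 24 h (48.3% of all genes) and 43 of 45 at 2 weeks (47.6%). Across the members the 2 responses had a Pearson correlation of 0.58 and a Spearman correlation of 0.59 at 24 h, and of 0.48 and 0.42 at 2 weeks; these are over genes that share libraries and are a description only.

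The lines made from the ecotypes give more lines of each background, though they are not replicates of the wild type. At 24 h the log2 ratios of all 4 SW-background lines lay below those of all 3 IT-background lines for 27 of 46 members, where 16.1% of all genes did so. At 2 weeks this held for 35 of 45 members, against 22.6% of all genes. The exceptions at 2 weeks were LHCB4.3, LHCB7, LIL3:1, PSBS, PSAH1, PSBQ1, PSBW, PSBX, PSBY and PSBTN, which include all 4 small subunits of photosystem II.

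**Figure D4:**
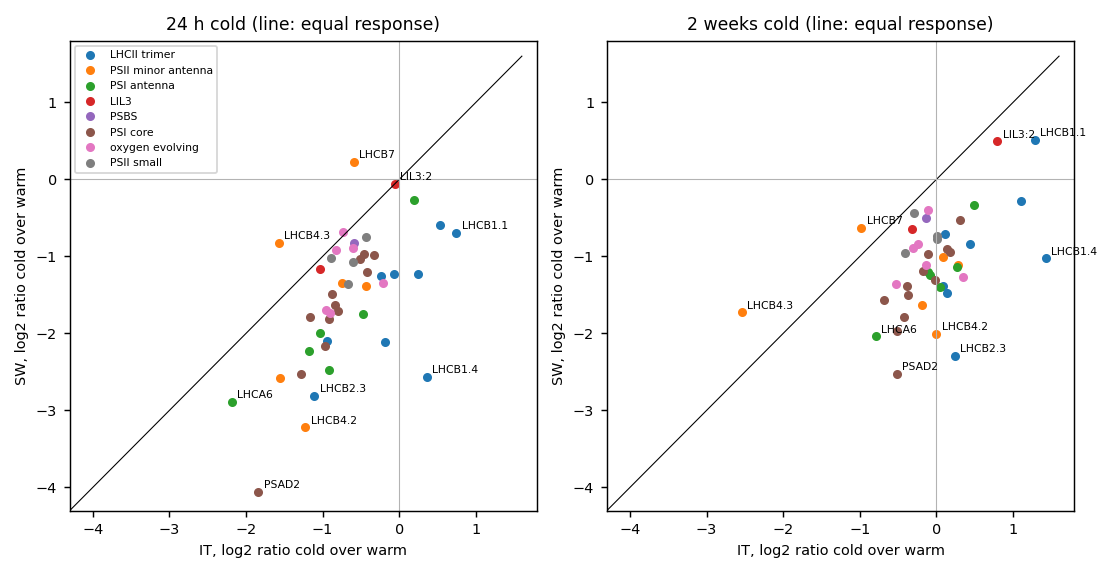
Log2 ratio of cold over warm in SW (vertical axis) against IT (horizontal axis) for each member, coloured by class, at 24 h (left, 46 members) and 2 weeks (right, 45 members); the diagonal marks equal responses. At both times 43 members lie below the diagonal, and LHCB1.4 lies far below it at 24 h, at -2.56 in SW and 0.36 in IT.

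The fourth comparison was between the lines made from each ecotype and their wild type. At 24 h, 12 of 46 members were called higher in sw:cbf123 than in SW and none lower, where 5.27% of all genes were called higher. They were LHCB1.1, LHCB1.2, LHCB1.3, LHCB1.4, LHCB2.2, LHCB5, LHCB6, LHCA4, PSAO, PSBQ1, PSBW and PSBX. PSAO differed most, at 1786 FPKM in sw:cbf123 against 596 in SW. In sw:cbf2 the 7 called (3.39%) were LHCB1.1, LHCB1.2, LHCB1.3, LHCB1.4, LHCB2.2, PSAO and PSBW, and in sw:cbf23 the 3 called (3.2%) were LHCB1.1, PSAO and PSBW. At 2 weeks the counts were 4 in sw:cbf123 (3.44%), 2 in sw:cbf2 (2.5%) and 2 in sw:cbf23 (3.42%), with PSAO and PSBW in each. In the warm they were 1 in sw:cbf123 (2.08%), none in sw:cbf2 (1.64%) and 1 in sw:cbf23 (2.1%), in both cases PSBW. At 24 h the count was 2 for sw:cbf2 and 1 for sw:cbf23 under median-of-ratios scaling. After removal of a trend with base composition it was 5 for sw:cbf23 at 24 h, and 7 at 2 weeks and 3 in the warm for sw:cbf123.

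These 3 mutants share the SW groups as reference, so their values stand side by side and are not independent. From warm to 24 h to 2 weeks of cold, PSBW was 1442, 707 and 744 FPKM in SW, 2276.5, 1497.5 and 1732 in sw:cbf2, 3136, 1504 and 1765 in sw:cbf23 and 3249, 1636 and 1860 in sw:cbf123. PSAO was 2678, 596 and 777 FPKM in SW, 4513.5, 1460 and 1556.5 in sw:cbf2, 5041, 1303 and 1930 in sw:cbf23 and 5223, 1786 and 2042 in sw:cbf123. Both lay below every mutant in SW at each treatment. PSAD1 went the other way, at 6770, 1921 and 2956 FPKM in SW and 4201, 1246 and 2040 in sw:cbf123. SW lay below each of its 3 mutants at every treatment for 24 of 45 members (24.7% of all genes did so) and above them for 5 (15.4%), namely PSAD1, PSAG, PSAL, PSBY and PSBTN. The fall from warm to 24 h was smaller in sw:cbf123 than in SW by a median of 0.35 log2 units over the members, and smaller by 0.32 in sw:cbf2 and 0.18 in sw:cbf23, while the median over all genes was 0.08, 0.09 and 0.05.

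In the IT background no member was called in either direction in any of the 6 comparisons. In it8 over IT, 2.17%, 2.38% and 1.64% of all genes were called in warm, 24 h and 2-week plants, and in it33 over IT 1.25%, 1.6% and 1.74%. The members lay slightly higher in these 2 lines in the warm, with medians of 0.21 in it8 and 0.22 in it33. Above 0 were 41 and 44 of 46 members (46.6% and 52.2% of all genes). At 24 h the medians were -0.01 and 0.03, and their sign changed with the scaling. The log2 ratio of 24 h over warm was accordingly below that of IT, by a median of -0.22 in it8 and -0.18 in it33. Over all genes the median was 0.07 in both. The members' medians had the opposite sign to those in the SW mutants. What gave these shifts in it8 and it33 was not tested. These lines share the IT groups as reference, in the warm together with 35s, and their shifts are not independent.

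**Figure D5:**
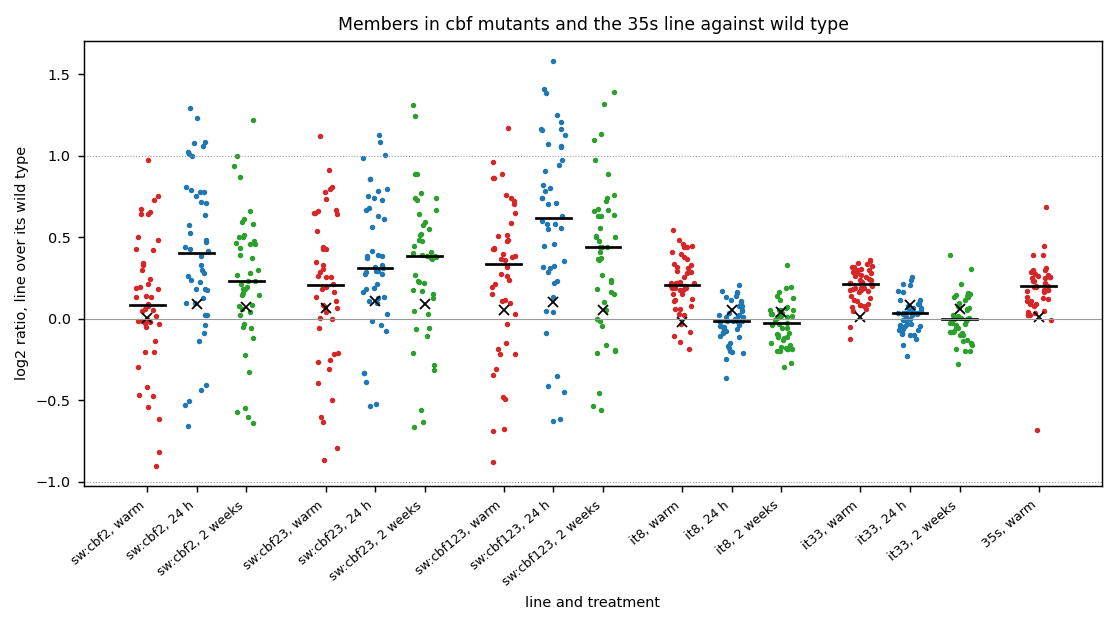
Log2 ratio of each line over SW or IT (vertical axis) for every member (points) at each treatment (horizontal axis). The 35s line, whose background is not given, is set over IT. Black bars are the medians of the members, crosses the medians of all genes, and dotted lines mark 2-fold. Points reach 1.58 in sw:cbf123 at 24 h (PSAO), and all points of it8, it33 and 35s lie between the dotted lines.

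In the 35s line, with its high CBF2 level in warm plants, none of the 46 members was called against IT in either direction, where 5.46% of all genes were. The background of 35s is not given, so IT need not be its parent. The median log2 ratio was 0.20, and 44 of 46 members lay above 0 (51.6% of all genes). LHCB1.4 was highest, at 2021 FPKM against 1253 in IT, and LHCB4.3 lowest, at 81.4 against 131.

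The promoters were read from TAIR10.1, from 250 bases before to 50 bases after the annotated start, with each motif searched on both strands. The G-box CACGTG, a light-response element, was in 16 of 46 members (34.8%) and in 7.68% of 27443 promoters of protein-coding genes. The I-box GATAAG was in 18 members (39.1%) and 14.6% of promoters. CCAATC, a motif bound by GLK factors, was in 15 members (32.6%) and 12.3%. ACCGAC or GCCGAC, the forms of the element that CBF proteins bind, was in 2 members, LHCB4.1 and LHCA6 (4.3%, against 8.72%). The evening element AAAATATCT was in 1 member, LHCA5 (2.2%, against 2.82%). These matches describe letters in a window and do not show binding. The 250 bases before the start are shown for 2 pairs of copies with unequal falls and for LHCA6, which fell furthest in IT; capitals mark matches to any of these motifs. They are LHCB4.1 at chr5:208616-208865 (plus strand), LHCB4.2 at chr3:2717307-2717556 (plus strand), PSAD1 at chr4:1230165-1230414 (minus strand), PSAD2 at chr1:754263-754512 (minus strand) and LHCA6 at chr1:6612380-6612629 (plus strand).
LHCB4.1: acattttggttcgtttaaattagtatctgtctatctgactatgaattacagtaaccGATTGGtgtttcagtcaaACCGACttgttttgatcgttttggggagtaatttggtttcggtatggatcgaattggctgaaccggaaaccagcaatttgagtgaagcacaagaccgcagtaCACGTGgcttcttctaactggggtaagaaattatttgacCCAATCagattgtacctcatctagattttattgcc
LHCB4.2: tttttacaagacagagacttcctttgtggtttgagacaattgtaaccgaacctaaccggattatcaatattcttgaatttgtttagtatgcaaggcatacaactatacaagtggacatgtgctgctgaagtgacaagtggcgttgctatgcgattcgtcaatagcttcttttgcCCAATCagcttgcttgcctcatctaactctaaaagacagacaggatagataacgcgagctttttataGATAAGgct
PSAD1: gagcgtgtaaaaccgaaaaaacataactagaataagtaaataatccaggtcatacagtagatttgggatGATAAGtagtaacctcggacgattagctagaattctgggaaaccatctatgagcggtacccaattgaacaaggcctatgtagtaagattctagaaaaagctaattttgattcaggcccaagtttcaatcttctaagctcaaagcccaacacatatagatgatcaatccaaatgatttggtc
PSAD2: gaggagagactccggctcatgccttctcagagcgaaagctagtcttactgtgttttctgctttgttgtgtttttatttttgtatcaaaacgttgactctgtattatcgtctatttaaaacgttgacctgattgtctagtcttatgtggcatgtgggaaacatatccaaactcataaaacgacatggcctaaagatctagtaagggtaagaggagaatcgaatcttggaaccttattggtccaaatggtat
LHCA6: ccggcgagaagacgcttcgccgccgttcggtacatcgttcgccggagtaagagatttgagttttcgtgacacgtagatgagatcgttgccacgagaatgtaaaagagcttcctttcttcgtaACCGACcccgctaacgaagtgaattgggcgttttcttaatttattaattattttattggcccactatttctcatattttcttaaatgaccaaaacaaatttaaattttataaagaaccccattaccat
LHCB4.1 holds a G-box, the CBF-type element and 2 CCAATC motifs here, whereas LHCB4.2 holds 1 CCAATC and 1 I-box. An I-box of LHCB4.1 lies after the start, outside this stretch. PSAD2 has no match in this stretch; its I-box lies just after the start.

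Other genes of the photosynthetic apparatus were followed in lists chosen by function. As background for these lists at 24 h, 14.7% of all genes were called lower in SW and 10.9% in IT. Called higher were 2740 of 18828 genes in SW and 1714 of 18619 in IT. Of 11 genes of electron transport and the ATP synthase, 5 were called lower in SW at 24 h (PETE1, PETE2, FD1, FNR1 and ATPD) and none higher, with a median log2 ratio of -0.89. In IT 4 were called lower (PETE1, PETE2, FD1 and ATPD), with a median of -0.62. FD1, a leaf ferredoxin, was still lower at 2 weeks in both ecotypes (-2.76 in SW, -2.47 in IT). Of 18 chlorophyll synthesis genes, CHLM, PORA, PORC, CAO and GGR were called lower in SW at 24 h, led by CHLM (-2.27), a methyltransferase of the magnesium branch. In IT CHLM and PORC were called lower, and PORA and PORB, protochlorophyllide reductases, higher. At 2 weeks PORA was higher in both ecotypes, at 117 FPKM against 9.18 in warm SW and at 57.1 FPKM against 0.634 in warm IT. Of 5 genes that insert antenna proteins into the membrane, CPSRP43 alone was called lower in SW at 24 h (-1.82) and none in IT. Of 7 chlorophyll breakdown genes NYC1 and SGR2 were called higher in SW at 24 h, and none in IT.

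Of 7 genes for photosystem assembly and further subunits, PSB27, PSAP and PPL2 were called lower in SW at 24 h, and PSB27 and PPL2 in IT. Of 7 genes for state transitions and cyclic electron flow, STN8 was called lower in SW (-1.10) and none in IT. The 9 regulators included GLK1 and GLK2, transcription factors that activate antenna genes. In SW at 24 h GLK2 was called lower and HYH, CGA1 and SIG5 higher, and in IT GLK1, GLK2, HY5 and SIG5 were called lower. GLK2 went from 95.7 to 39.7 and 21.7 FPKM in SW, and in IT from 85.2 to 38.8 and 62.8. GLK1 went from 115 to 90.6 and 62.7 FPKM in SW, and in IT from 108 to 34.7 and 124, so at 24 h its level was lower in IT. HYH, a relative of the light-signalling factor HY5, rose from 52.5 to 354 FPKM in SW at 24 h and stood at 192 and 178 in IT.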

How the data were processed

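RNA-seq of 44 samples was deposited as 1 table of 22 FPKM columns and 33557 genes, with 0 columns left unused. According to the submitters' processing notes and the methods, the authors aligned reads to TAIR10 with TopHat2 2.1.0 and ran Cuffdiff (Cufflinks 2.1.1 in the notes, another version in the methods), which gives 1 deposited FPKM value for the 2 replicates of a group. Fragment counts are unknown, so no interval or test was possible. Log2 ratios used a pseudocount of 0.5 FPKM, a filter of 1 FPKM in either group and a 2-fold rule, in Python 3.11.15 with pandas 2.3.3, NumPy 2.4.6 and, for trends, statsmodels 0.14.6. Ratios on this scale understate changes of low genes. Alternatives were other pseudocounts, no filter, and other scalings. Sequences and positions are RefSeq's TAIR10.1, in which all 46 members and 32813 of the 33557 genes were found. Any member could be named; those given in most detail were the most abundant of a class, those with extreme ratios and those called where 10 or fewer were. Members are defined by name and function, but they and the lists were chosen with earlier results of these data known.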

Additional observations from a re-analysis of the deposited data

Results flagged for a closer look

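LHCB1.4 was singled out because its change after 2 weeks of cold ran in opposite directions in the ecotypes, each past 2-fold: the log2 ratio was -1.03 in SW and 1.43 in IT. Each is 1 pooled value, so the difference was not tested. The lines made from each ecotype had values of the same sign, from -1.09 to -0.81 in the SW background and from 1.03 to 1.43 in the IT background. LHCB1.4 shares a run of 122 coding bases with LHCB1.5 and runs of 50 bases or fewer with the other LHCB1 genes. Its single level is therefore uncertain.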

How the results depend on the processing

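No paired analysis was possible because the columns carry no replicate, and for the same reason leaving out a replicate was not run. Of the counts of members given above, 39 were recomputed; the pseudocount (0.1 or 1 FPKM) and leaving out the filter moved none of them by over 1.5 times. Median-of-ratios scaling moved 3: sw:cbf2 over SW gave 2 members at 24 h and 1 at 2 weeks, and sw:cbf23 over SW 1 at 24 h. Scaling to the nuclear genes that are not members moved 5: 17 lower in IT at 24 h, 17 higher in IT between 24 h and 2 weeks, 2 and 1 higher in sw:cbf2 over SW at 24 h and 2 weeks, and 9 higher in warm SW over IT. Quantile normalization moved 13. At 2 weeks it gave 11 members lower for SW, 10 for sw:cbf2, 9 for sw:cbf23 and 8 for sw:cbf123. It gave 13 lower in it8 at 24 h, 13 higher in IT between 24 h and 2 weeks, and 11 lower in SW than IT at 24 h. For the difference of responses it gave 7 at 24 h and 14 at 2 weeks. Among mutants over SW it gave 1 and 4 in sw:cbf2 in the warm and at 24 h, 1 at 2 weeks, and 2 in sw:cbf23 in the warm. Removing a lowess trend on the share of G among G and C, chosen after seeing the data, moved 6: 1 in sw:cbf2, 2 in sw:cbf23 and 3 in sw:cbf123 over SW in the warm, 5 in sw:cbf23 at 24 h, 7 in sw:cbf123 at 2 weeks, and 1 higher in warm SW over IT. The members' median share of G was 48.9% against 52.8% for expressed genes. Counting LHCB1.3 at its listed 0, also chosen later, gave 2 lower at 2 weeks in IT, it8 and it33. Of 420 called ratios, a move of over 0.25 log2 units was seen for 200 under quantile normalization, 31 under scaling to nuclear non-members and 20 under the lowess correction, and of 42 medians for 13, 2 and 1. One called ratio changed sign: LHCB1.3 in the difference of responses at 24 h was 0.46 under quantile normalization. The causes were not tested. The median of all genes shifted by -0.25 to 0.24 log2 units between comparisons under scaling to nuclear non-members, and by -0.10 to 0.14 under quantile normalization. Fragment numbers are unknown, so the precision of low members such as LHCA6 and LHCB7 cannot be given.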
